A study of Mus musculus with 2 samples.

Results

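The 9 genes described here are interferon-induced genes, found by their symbols among 32285 genes of a single-nucleus RNA matrix: Ifit1, Ifit2, Ifit3, Rsad2, Isg15, Cxcl10, Irf7, Parp14 and Ifi204. All 9 were measured. The question was whether they are seen together in a few nuclei or spread evenly, over macrophage states and over epithelial nuclei. Nuclei came from tumour-associated macrophages (TAMs) of PyMT mice, whose mammary tumours are driven by the polyoma middle T oncogene. There were 2 samples, 1 of each genotype: control-PyMT, and MYC-PyMT, which carries S100a8-cre and the Rosa26-LSL-MYC allele. S100a8, whose promoter drives this cre, is a gene of neutrophils, and for the marrow donors no MYC allele is listed. Mice of both groups were backcrossed to B6, were irradiated at 7 weeks of age and received marrow cells of Fcgr1-cre donors with a Rosa26-LSL-H2B-mCherry allele. Both groups began a low protein diet 2 weeks later and stayed on it for 6 weeks. The sources used here give neither the host cells that survived irradiation nor the number of mice in each sample. F4/80 and Vcam positive CD45 cells were sorted first, then their mCherry and SYTO9 positive, CD11b negative nuclei.

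The matrix held 7381447 unique molecular identifiers (UMIs, counts of distinct molecules) over 1838 barcodes, each with the suffix 1 or 2. The 2 suffixes are called well 1 and well 2 below. Neither well can be tied to a genotype from the labels, so the matrix was read as 1 pooled sample and no comparison of genotypes was made. After filtering, 1812 nuclei remained. Clusters were made without any interferon gene and named by markers. The 1248 macrophage-like nuclei, 867 of well 1 and 381 of well 2, had 4662 CPM (counts of a gene or list per 1000000 UMIs) of 11 macrophage markers and 200.5 CPM of 12 epithelial markers. The 269 epithelial-like nuclei, 240 of well 1 and 29 of well 2, had 386.9 and 3752 CPM, although the sort selected macrophages. Median depth was 2803 UMIs in macrophage-like and 5221 UMIs in epithelial-like nuclei. A further 284 nuclei had few counts and stayed unnamed. Barcode sequences found in both wells numbered 9. They were carried by 12 kept nuclei, of which 0 macrophage-like and 7 epithelial-like ones had 2 or more of the inducible genes described below. These genes had 1091 UMIs in epithelial-like nuclei, and 734 without the shared barcodes. Summed epithelial levels, numbers of nuclei with several members, the 9-member ratio and the ratio of other interferon targets are therefore also given without them. All other epithelial values, those of single genes among them, include the shared barcodes. All intervals are exact 95% intervals that reflect counting error only, and variation from mouse to mouse is not in them. Those of CPM and of ratios also leave out variation from nucleus to nucleus. They are too narrow where few nuclei hold many of the UMIs. With 1 unmapped sample there is no test, and differences are described by their size.

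Type I interferons bind the receptor IFNAR on the same or a neighbouring cell, and the kinases JAK1 and TYK2 then activate transcription factors of the STAT family. With IRF9 these form a complex that binds the interferon-stimulated response element (ISRE) in the promoters of target genes. Some targets can also be switched on directly by IRF3 or NF-kB when a cell senses nucleic acids or microbial products. In tumours, interferon signalling in macrophages is known for chemokine output that draws T cells.

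Of the members, Ifit1, Ifit2 and Ifit3 encode proteins that bind viral RNA or help to do so. Rsad2 encodes viperin, an enzyme that blocks virus replication, and Isg15 encodes a ubiquitin-like modifier. Cxcl10 encodes a chemokine for T cells. Irf7 encodes the transcription factor that amplifies interferon production, Parp14 an ADP-ribosyltransferase and Ifi204 a member of the PYHIN family of DNA-binding proteins. The first 6 are called the inducible members below. Irf7, Parp14 and Ifi204 are called the broad members, since Parp14 and Ifi204 were known to be counted in many macrophage-like nuclei. The name is a label only: Irf7 was counted in 114 macrophage-like nuclei, fewer than the 127 of Rsad2, and in epithelial-like nuclei 10 nuclei held 52.2% of the UMIs of Irf7 and 77.6% of those of Ifi204.

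The promoter stretches of 5 inducible members are shown because each holds the letters of the ISRE core. Each is the 250 bases before the RefSeq transcription start on build GRCm38.p6, read 5′ to 3′ along the gene, with matches to the ISRE core (GAAA, any 2 bases, GAAA), searched on both strands, in capitals.
Ifit1: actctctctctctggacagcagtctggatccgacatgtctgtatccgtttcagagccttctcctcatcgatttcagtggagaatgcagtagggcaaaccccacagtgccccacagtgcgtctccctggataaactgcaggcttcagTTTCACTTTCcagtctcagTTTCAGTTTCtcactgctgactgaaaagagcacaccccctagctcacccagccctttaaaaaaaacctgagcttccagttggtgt
Ifit3: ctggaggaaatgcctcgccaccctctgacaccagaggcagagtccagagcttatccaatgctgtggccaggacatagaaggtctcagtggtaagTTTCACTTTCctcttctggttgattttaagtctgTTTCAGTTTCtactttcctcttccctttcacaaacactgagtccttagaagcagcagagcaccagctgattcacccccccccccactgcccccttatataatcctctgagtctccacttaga
Rsad2: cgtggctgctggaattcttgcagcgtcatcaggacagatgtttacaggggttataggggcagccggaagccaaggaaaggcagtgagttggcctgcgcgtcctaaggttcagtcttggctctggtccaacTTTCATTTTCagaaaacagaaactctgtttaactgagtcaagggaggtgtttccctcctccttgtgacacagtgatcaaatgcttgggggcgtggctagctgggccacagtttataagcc
Isg15: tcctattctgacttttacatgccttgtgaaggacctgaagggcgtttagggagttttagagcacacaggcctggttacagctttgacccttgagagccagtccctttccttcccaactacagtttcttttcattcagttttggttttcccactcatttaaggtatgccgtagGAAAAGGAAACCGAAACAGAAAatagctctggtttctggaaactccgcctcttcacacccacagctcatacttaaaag
Cxcl10: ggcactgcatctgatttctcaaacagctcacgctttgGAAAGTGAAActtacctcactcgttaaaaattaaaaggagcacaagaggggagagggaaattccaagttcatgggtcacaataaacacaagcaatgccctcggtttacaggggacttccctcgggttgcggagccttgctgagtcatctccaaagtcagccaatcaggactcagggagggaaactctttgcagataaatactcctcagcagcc

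The windows lie at chr19:34640639-34640888 on the plus strand for Ifit1, chr19:34583279-34583528 on the plus strand for Ifit3, chr12:26456453-26456702 on the minus strand for Rsad2, chr4:156200819-156201068 on the minus strand for Isg15, and chr5:92348890-92349139 on the minus strand for Cxcl10. Ifit1 and Ifit3 each held 2 matches, Rsad2 and Cxcl10 held 1 each, and Isg15 held 3 that overlap one another and share 1 run of capitals. In Ifit1 the matches were 104 to 95 and 85 to 76 bases before the start, in Isg15 they spanned 78 to 57 bases before it, and in Cxcl10 the match was farther away, at 213 to 204. The same core was found in 2.98% of 32851 windows of this length, and 2 or more matches in 0.180%. The 2 windows of Ifit2 and the window of Irf7 held no match to these letters. A kB motif (GGGA, any 2 bases, TTCC) was found once in the Cxcl10 window and once in 1 Ifit2 window, and in 1.21% of all windows. A GAS motif, TTCNNNGAA, was found in the same Ifit2 window, where it overlaps the kB match, and in 7.02% of all. Windows were at hand for 7 of the 9 members, not for Parp14 and Ifi204. A match is a description of letters and not evidence of binding. In the GENCODE annotation of GRCm38, Ifit2 (chr19:34550694-34576419), Ifit3 (chr19:34583531-34588731) and Ifit1 (chr19:34640871-34650009) are neighbours on the plus strand. The near copy Ifit3b lies among them and had 7.37 CPM in macrophage-like nuclei, so counts of Ifit3 and Ifit3b may be split unevenly. Ifi204 (chr1:173747293-173766943) likewise belongs to a family of similar genes, of which Ifi207 had 425 CPM and Mndal 215 CPM. Cxcl10 overlaps Art3 and Irf7 overlaps Phrf1 on the opposite strand, and Parp14 overlaps Gm49730 on the same strand.

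In macrophage-like nuclei the 6 inducible members together had 300.6 CPM (284 to 318) and the 3 broad members 426 CPM (406 to 447). Levels are not compared between genes, since introns of long genes may add to counts from nuclei. Ifit1 had 94 UMIs (23.9 CPM), Ifit2 219 UMIs (55.7 CPM) and Ifit3 104 UMIs (26.4 CPM). Rsad2 had 504 UMIs (128 CPM), Isg15 116 UMIs (29.5 CPM) and Cxcl10 146 UMIs (37.1 CPM). Irf7 had 163 UMIs (41.4 CPM), Parp14 782 UMIs (198.7 CPM) and Ifi204 733 UMIs (186 CPM). By unmapped well, macrophage-like nuclei held the inducible members at 332 CPM (311 to 354) in well 1 and at 233 CPM (207 to 261) in well 2. The ratio of well 1 to well 2 was 3.17 for Ifit1 (1.72 to 6.39), 2.82 for Ifit2, 2.56 for Ifit3 and 3.13 for Isg15. It was 1.05 for Rsad2 (0.863 to 1.27) and 0.629 for Cxcl10 (0.448 to 0.889), so the 6 genes did not differ alike between wells. Irf7 (0.888) and Ifi204 (1.05) had intervals that include 1, and Parp14 was at 1.45 (1.23 to 1.71).

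In epithelial-like nuclei the inducible members had 354 CPM (333 to 376) and the broad members 315 CPM (295 to 335), or 313 and 279 CPM without the shared barcodes. All 9 members together were at 1.09 times the epithelial level in macrophage-like nuclei (1.03 to 1.15). That near equality depends on how nuclei are weighed: the ratio was 1.57 as a mean over nuclei, 1.68 after thinning to 1000 UMIs and 9.77 in well 2 alone. The 29 epithelial-like nuclei of well 2 had only 10 UMIs of the inducible members (48.1 CPM) and 3 of the broad members, at a median of 6591 UMIs. Irf7, Ifi204 and Cxcl10 had 0 UMIs in them, which allows up to 14.4 CPM (3 counts of the total).

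Single genes differed far more between the classes than their sum. Of the 9 members, 2 were at least 2-fold higher in macrophage-like nuclei, where 16.3% of 10725 genes were, and 3 were at least 2-fold lower, where 26.3% were. Cxcl10 had 3 UMIs in all epithelial-like nuclei (0.974 CPM) and was 38.1-fold higher in macrophage-like ones (12.8 to 187). After thinning to 1000 UMIs, it was seen in 1.97% of macrophage-like and 0.806% of epithelial-like nuclei, shares too low to order. Ifi204 was 11.7-fold higher in macrophage-like nuclei (8.76 to 16), and the thinned shares were 13.6% and 1.21%. The macrophage markers as a list were 12.0-fold higher, a ratio close to that of Ifi204, which had 15.9 CPM in epithelial-like nuclei. Irf7 was at 0.271 of its epithelial level (0.225 to 0.324), with 153 CPM in epithelial-like nuclei. Ifit1 was at 0.292 (0.228 to 0.371) and Ifit3 at 0.395 (0.309 to 0.503), with Isg15 at 0.519 (0.407 to 0.660). These lower values were those of well 1. In well 2 Irf7 was at 44.9 CPM in macrophage-like nuclei and had 0 UMIs in the 29 epithelial-like ones, Ifit3 was at 12.8 and 4.81 CPM, Isg15 at 12.0 and 4.81 CPM, and Ifit1 at 9.61 CPM in both, on 1 or 2 epithelial UMIs each. Rsad2 (1.20), Ifit2 (1.37) and Parp14 (1.36) were somewhat higher in macrophage-like nuclei, each with an interval above 1.

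**Figure D1:**
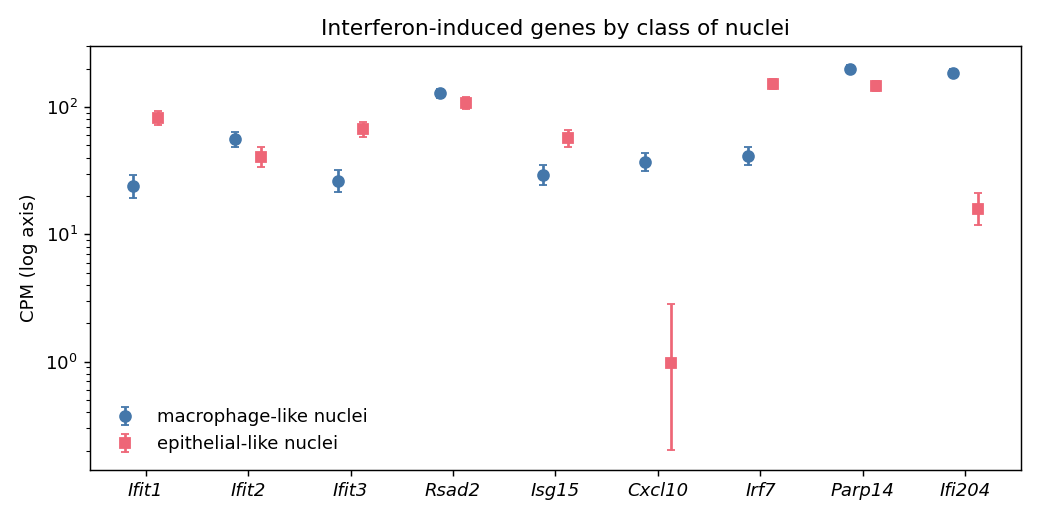
CPM of each of the 9 members (log axis) over macrophage-like nuclei (circles) and epithelial-like nuclei (squares), with exact 95% Poisson intervals as bars. Cxcl10 and Ifi204 lie far higher in macrophage-like nuclei, and Ifit1, Ifit3 and Irf7 lie higher in epithelial-like ones.

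The inducible members were not spread evenly over macrophage-like nuclei. Their 1183 UMIs lay in 304 of 1248 nuclei (24.4%), where a spread in proportion to each nucleus's depth would have reached 703. The 10 richest nuclei held 35.2% of these UMIs, and 20 nuclei held 50%. At an equal depth of 1000 UMIs, 12.8% of 1168 nuclei had a UMI of the 6, against 25.8% for an even spread, and the variance was 5.89 times the mean. At 4000 UMIs, a depth chosen after seeing the data, 28.6% of 336 nuclei had one, against 69.8%, so deeper nuclei did not close the gap.

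Each inducible member was concentrated by itself, to a different degree. The 504 UMIs of Rsad2 lay in 127 nuclei where an even spread would have reached 394.5, with 54 of them in 1 nucleus and 46.6% in 10. The 146 UMIs of Cxcl10 lay in 56 nuclei against 135 for an even spread, 63.7% of them in 10 nuclei, and 5 nuclei held 50%. Ifit2 had 85 nuclei against 196 for an even spread, and Ifit1 had 57 against 89.5. Ifit3 lay in 71 nuclei against 98.5, with at most 7 UMIs in any of them. Isg15 lay in 69 nuclei against 109, with 22 of its UMIs in 1.

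Of the broad members, Parp14 was seen in 410 nuclei (32.9%) where an even spread would give 543, and Ifi204 in 389 (31.2%) where it would give 520. Their 10 richest nuclei held 10.5% and 11.5% of their UMIs, and no nucleus had more than 12 UMIs of either. Irf7 was seen in 114 nuclei against 150, with 22.7% of its UMIs in 10. Since these genes were set apart for their number of nuclei, this difference from the inducible members is a description of the split.

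Different inducible members met in the same nuclei. Of macrophage-like nuclei, 88 (7.05%, 5.69 to 8.62) had 2 or more of the 6, and they held 74.2% of the UMIs. If each gene kept its own number of positive nuclei, placed independently by depth, 71.0 such nuclei would be reached. The excess grew with the number of genes: 40 nuclei had 3 or more where independence gives 8.93, 21 had 4 or more where it gives 0.774, and 10 had 5 or more where it gives 0.0432. All 6 were seen in 2 nuclei. The same held in each well, with 30 against 8.87 nuclei for 3 or more in well 1 and 10 against 0.843 in well 2, and after thinning to 1000 UMIs, with 16 against 0.499. These expected numbers are descriptions, with no p.

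**Figure D2:**
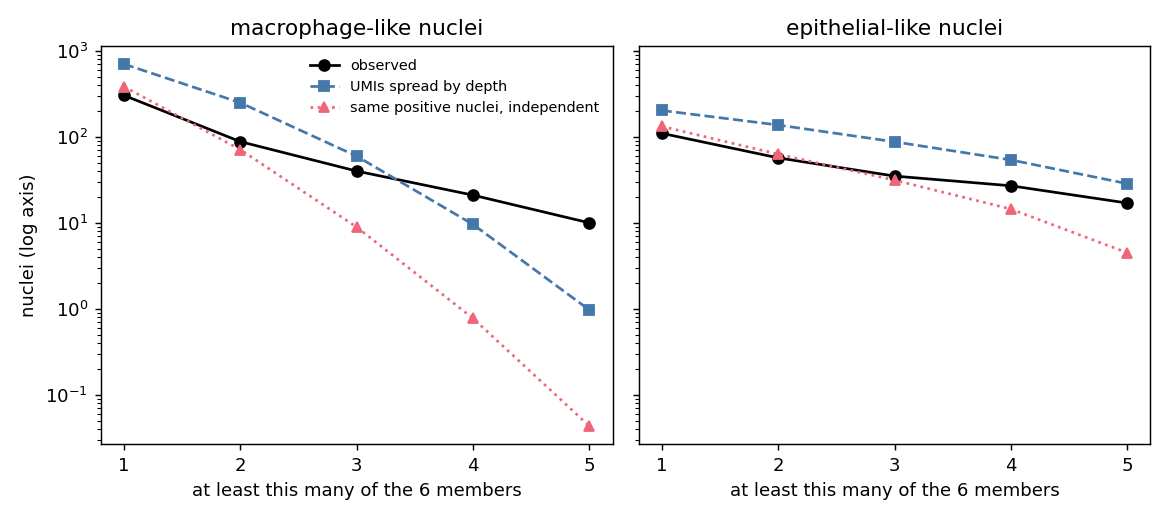
Number of nuclei (log axis) with at least 1 to 5 of the 6 inducible members in macrophage-like (left) and epithelial-like (right) nuclei. Circles are observed numbers, squares those for UMIs spread by depth, and triangles those for the same number of positive nuclei per gene placed independently; in macrophage-like nuclei the observed line leaves the triangles from 3 members on, at 40 against 8.93.

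All 15 pairs of inducible members were seen together more often than under independence, at 1.97 to 4.38 times the number it gives. The highest was Ifit1 with Ifit2, in 22 nuclei where 5.03 were given, which is 38.6% of Ifit1 nuclei and 25.9% of Ifit2 nuclei. Rsad2 with Ifit2 were in 42 nuclei where 11.1 were given, 33.1% and 49.4% of each. The lowest was Ifit3 with Isg15, in 10 nuclei where 5.08 were given. Cxcl10 paired with Rsad2 in 17 nuclei where 7.34 were given, and with Isg15 in 12 where 4.02 were given.

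The richest macrophage-like nuclei did not share 1 mixture. The first had 71 UMIs of the 6: 22 of Isg15, 19 of Ifit2, 15 of Rsad2, 11 of Cxcl10, 3 of Ifit3 and 1 of Ifit1. The second had 63, with 25 of Ifit2, 20 of Rsad2, 7 each of Ifit1 and Ifit3, 4 of Cxcl10 and 0 of Isg15. Nuclei 3 and 4 were almost all Rsad2, with 54 of 59 and 43 of 44 UMIs. In the fifth, 33 of 35 were Cxcl10, and the seventh had 21 of Cxcl10 and 8 of Isg15 with 0 of the other 4. The eighth had 13 of Ifit1 and 9 of Ifit2. Nuclei 3, 4 and 5 were from well 2, and the others named here from well 1. Macrophage markers were few in some of them: nuclei 2, 3 and 4 had 5, 3 and 5 UMIs among 5257, 3392 and 2721. Nuclei 1 and 5 had 46 and 53 such UMIs among 5293 and 4467.

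**Figure D3:**
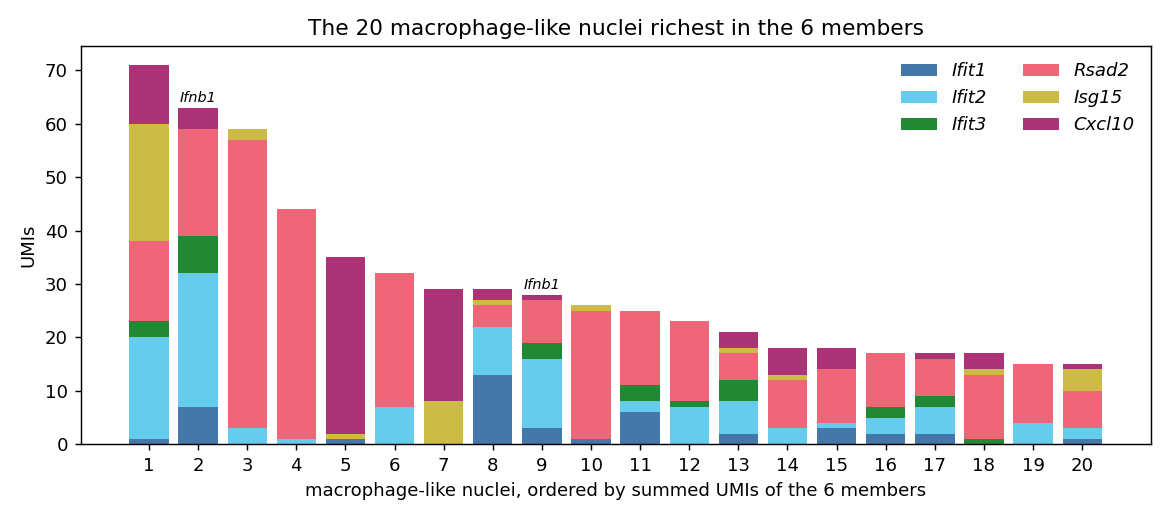
UMIs of the 6 inducible members, stacked by gene, in the 20 macrophage-like nuclei with the highest sums, in order. Rsad2 fills most of nuclei 3 and 4 and Cxcl10 most of nuclei 5 and 7, while nuclei 1 and 2 hold 6 and 5 of the genes; the label Ifnb1 marks the 2 nuclei with UMIs of that interferon gene.

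Single-gene nuclei also differed in the 51 other interferon targets, which had no part in choosing them. Of 25 macrophage-like nuclei with 5 or more UMIs of Rsad2, 20 had another inducible member, and these had 16639 CPM of the other targets (15718 to 17601). The remaining 5 had 5215 CPM (4234 to 6356), closer to the 3042 CPM of nuclei with 0 of the 6. Nuclei with 5 or more UMIs of Ifit2 numbered 9, and had 14602 CPM. Among them was 1 with no other member, at 9480 CPM (6441 to 13456), well above the nuclei with 0 of the 6. The 5 nuclei with 5 or more UMIs of Cxcl10 had 8428 CPM (7222 to 9778). Of these, the 4 with another member had 10152 CPM, and the 1 without had 2049 CPM (937 to 3890). The nuclei rich in Cxcl10 were unlike one another: the fifth richest had 5373 CPM of other targets and 119 UMIs of inflammatory-state genes, and the seventh had 839 CPM and 98 UMIs. The first 2 nuclei, with mixed members, had 15870 and 15218 CPM of other targets and 28 and 33 UMIs of inflammatory-state genes. The mixture did not set the level of other targets in every case: nuclei 3 and 4, almost all Rsad2, had 25059 and 19846 CPM, and the eighth, with 5 members, had 2039 CPM.

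Interferon genes themselves were almost absent. Of 13 ligand genes, 10 had 0 UMIs in all nuclei. Ifnb1, which encodes interferon beta, had 7 UMIs in 2 macrophage-like nuclei, and these were the second and ninth richest in the inducible members, each with 5 of the 6. One had 3 UMIs of Ifnb1 and the other 4. Both were from well 1 and from the lipid-like sub-cluster described next. They had 5 macrophage-marker UMIs among 5257 and 2 among 2547, a lower share than the 4662 CPM of the class. Ifnk had 2 UMIs in 2 epithelial-like nuclei, and Ifng had 2 UMIs in nuclei of neither class. Markers of plasmacytoid dendritic cells, which make type I interferon, were at 36.7 CPM (13 UMIs) in macrophage-like nuclei with 2 or more of the 6 and at 40.9 CPM in those with 0.

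Macrophage-like nuclei were clustered again into 9 sub-clusters, again without interferon genes. Sub-cluster 5 is lipid-like: 5 of 8 lipid-state markers counted for it, among them Gpnmb, and all 4 of the Mmp12 list. Only 2 of 11 macrophage markers counted for it, and the list was at 2830 CPM against 4847 in the others. Of 6 endothelial markers 2 counted for it, with the list at 94.1 CPM. Its place among macrophage states is therefore less secure. Sub-cluster 2 counted 12 of 12 immediate early and heat shock genes, and also 6 of 10 inflammatory genes (4910 CPM). Sub-cluster 8 counted 10 of 10 inflammatory genes but only 1 of 11 macrophage markers (2611 CPM). It also counted 6 of 12 immediate early and heat shock genes (8644 CPM), so the names of sub-clusters 2 and 8 mark states that overlap. Sub-cluster 9 counted 6 of 7 resident genes. The others are given by number. Wells were unequal: sub-clusters 1, 2, 7 and 8 were nearly all from well 1, sub-cluster 9 was wholly from well 2, and sub-cluster 5 had 44 nuclei of well 1 and 46 of well 2. A sub-cluster from 1 well cannot be told apart from that well.

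The inducible members were highest in the lipid-like sub-cluster, at 903 CPM (807 to 1006) over 90 nuclei, 3.76-fold the other macrophage-like nuclei (3.30 to 4.28). Next came the immediate early and heat shock sub-cluster at 414 CPM (371 to 460) and the inflammatory one at 349 CPM (269 to 445), whose intervals overlap. Sub-clusters 4 at 270 CPM (216 to 334) and 1 at 211 CPM (186 to 238) also overlapped. Sub-clusters 6, 3 and 7 were at 116, 106 and 106 CPM, and the resident-like sub-cluster was at 56.1 CPM (28.0 to 100.3), with overlapping intervals. The level in the lipid-like sub-cluster was 1104 CPM in its nuclei of well 1 and 745 CPM in those of well 2, and 1508 CPM where finer clustering redrew it.

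In the lipid-like sub-cluster 4 of the 6 inducible members were at least 2-fold higher than in the other macrophage-like nuclei, where 7.34% of 7864 genes were. Cxcl10 was 5.31-fold higher (3.70 to 7.54), Rsad2 4.69-fold (3.86 to 5.67), Ifit1 4.41-fold (2.75 to 6.94) and Ifit2 3.65-fold (2.66 to 4.95). Single nuclei weighed in each: 1 held 33 of the 51 UMIs of Cxcl10, and 1 held 54 of the 162 of Rsad2. For Ifit1 it was 13 of 29, and for Ifit2 25 of 59. Ifit3 (1.29) and Isg15 (1.25) had intervals that include 1. None of the 3 broad members was 2-fold different, their sum standing at 0.866 (0.721 to 1.03). The excess lay in few nuclei: 10 of the 90 held 92.6% of the UMIs, 3 held 50%, and without the richest the level was 739 CPM. The other interferon targets were not higher in this sub-cluster, at 0.840 of the other macrophage-like nuclei (0.792 to 0.891). That ratio was 1.08 (0.994 to 1.16) in well 1, an interval that includes 1, and 0.649 (0.593 to 0.711) in well 2. The lower level was thus seen in well 2 only.

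Some members were also higher in other states. Isg15 was 3.14-fold higher in the immediate early and heat shock sub-cluster (2.14 to 4.60), where 22 of its 53 UMIs were in 1 nucleus, and Rsad2 was 1.95-fold higher there (1.61 to 2.35). Isg15 was 2.36-fold higher in the inflammatory sub-cluster too (1.18 to 4.30). Cxcl10, like in the lipid-like sub-cluster, was higher in the inflammatory one, 5.07-fold (3.25 to 7.66), but 21 of its 29 UMIs there were in 1 nucleus, and its level was 158 CPM with that nucleus and 44.8 CPM without it. Ifit3 was 2.07-fold higher in sub-cluster 4 (1.13 to 3.55), which also had the highest level of the broad members, 604 CPM (522 to 696), and 3328 CPM of resident-state genes. Irf7 was 1.95-fold higher in sub-cluster 3 (1.28 to 2.90). Ifit1 and Isg15 had 0 UMIs in the 46 resident-like nuclei, which allows 15.3 CPM. Over all 9 sub-clusters the broad members ranged from 315 to 604 CPM, a narrower span than the 56.1 to 903 CPM of the inducible ones.

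**Figure D4:**
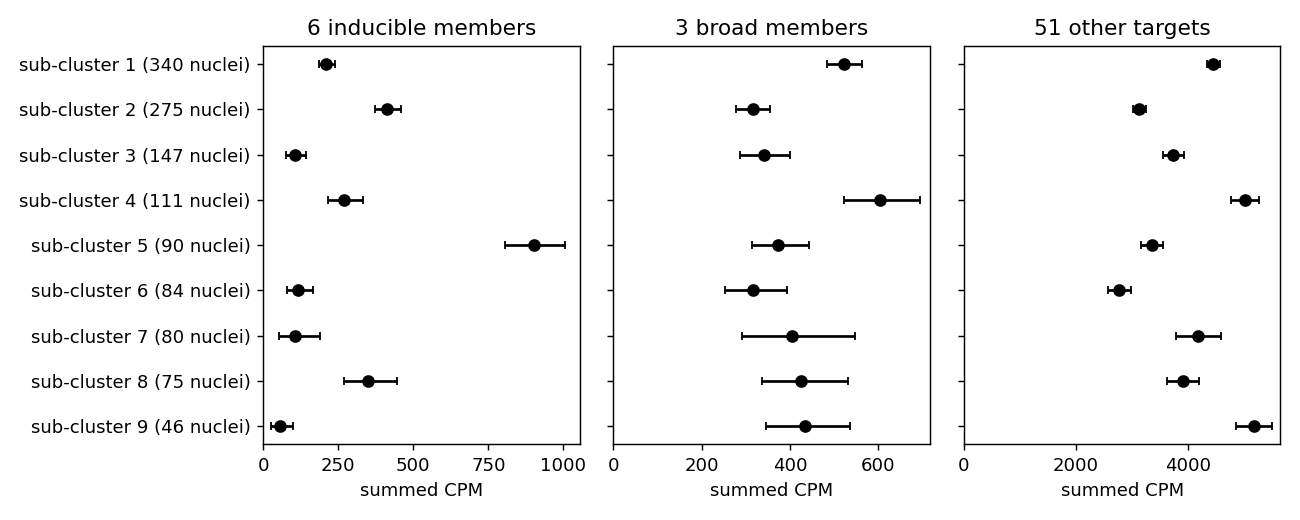
Summed CPM in each of the 9 macrophage sub-clusters of the 6 inducible members, the 3 broad members and the 51 other interferon targets, with exact 95% Poisson intervals as bars; each panel has its own axis from 0. Sub-cluster 5, the lipid-like one, stands apart for the inducible members at 903 CPM and not for the other lists.

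Nuclei with 2 or more of the 6 were found in 8 of the 9 sub-clusters. Their share was 12.2% in the lipid-like one (6.26 to 20.8), 9.91% in sub-cluster 4, 9.33% in the inflammatory one, 7.65% in sub-cluster 1 and 7.64% in the immediate early and heat shock one. These intervals overlap widely. The share was 2.72% in sub-cluster 3, 4.35% in the resident-like one and 0 of 80 nuclei in sub-cluster 7, which allows up to 3.75% at its median of 1150 UMIs. By count, 26 of the 88 nuclei were in sub-cluster 1, 21 in sub-cluster 2 and 11 in the lipid-like one, so most lay outside the state with the highest level.

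Macrophage-like nuclei with 2 or more of the 6 had more of the other interferon targets than nuclei with 0. The 51 targets together were at 10067 CPM (9739 to 10403) in the 88 nuclei, at 4312 CPM in the 216 nuclei with 1 of the 6, and at 3042 CPM (2978 to 3107) in the 944 with 0. The ratio of the first to the last was 3.31 (3.18 to 3.44). It was 3.14 in well 1, 3.92 in well 2 and 4.32 at an equal depth of 1000 UMIs. Median depth was 3846.5, 3220 and 2661.5 UMIs in the 3 groups. Of 39 targets with at least 50 UMIs in the 2 groups compared, 33 were at least 2-fold higher and 0 at least 2-fold lower, where 3.02% of 7262 genes were higher and 6.61% lower. The median target was at 3.25, and the median of all genes at 0.940.

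Among these targets, Rnf213, a large ubiquitin ligase, was at 1156 against 214 CPM, 5.39-fold (4.75 to 6.13). Trim30a was 3.13-fold higher, Sp100, a component of nuclear bodies, 2.55-fold, and Samhd1, which breaks down nucleotides, 1.94-fold. Ifi207, of the Ifi204 family, was 1.75-fold higher. The broad members were all at least 2-fold higher too: Irf7 4.53-fold (2.99 to 6.77), Parp14 4.28-fold (3.62 to 5.06) and Ifi204 4.72-fold (3.95 to 5.62). Parp14 and Ifi204 were also seen in 62 of the 88 nuclei each.

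Genes above the targets in the pathway were mixed. Among the receptor and signalling genes, Stat2, itself an interferon target, was 3.48-fold higher (2.83 to 4.25). Stat3 (1.03) and Jak1 (1.03) differed little, and the receptor genes Ifnar1, Ifnar2 and Ifngr1 were at 0.768, 0.729 and 0.793. Of 5 inhibitor genes with enough UMIs, Usp18, which encodes the enzyme that removes Isg15 and dampens the receptor, was 22.6-fold higher (12.1 to 45.0). Socs3 was at 1.34, and Pias1, Ptpn2 and Ptpn6 were at 0.951, 0.969 and 1.03. Of 14 sensor genes with enough UMIs, 5 were at least 2-fold higher: the RNA sensors Ddx58 (7.21), Ifih1 (5.51) and Dhx58 (2.49), the DNA sensor Cgas (2.48), and Myd88 (2.01), an adaptor of Toll-like receptors. Aim2 (1.19), Irf8 (0.831), Tbk1 (0.947) and Irf5 (1.07) were not. Of the 5 sensor genes with the most UMIs, Ifih1 was thus the 1 at least 2-fold higher. Over all genes tested the share that was 2-fold higher was 3.02%.

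**Figure D5:**
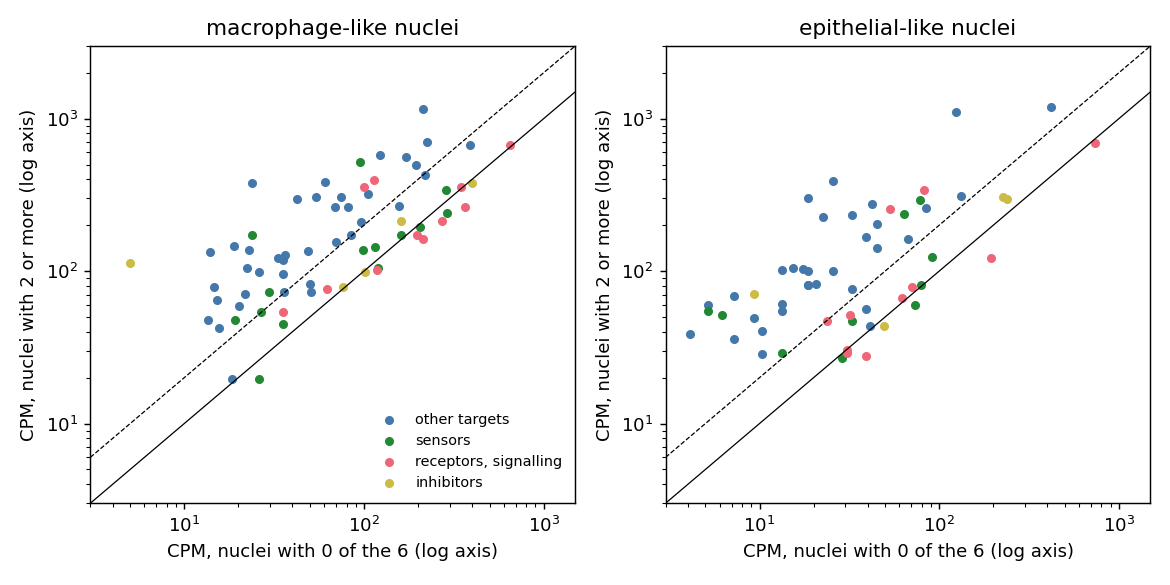
CPM per gene (log axes) of interferon pathway genes with at least 50 UMIs, in nuclei with 2 or more of the 6 inducible members against nuclei with 0, for macrophage-like (left) and epithelial-like (right) nuclei; genes with 0 UMIs in the nuclei with 0 are not drawn. The solid line marks equal levels and the dashed line a 2-fold difference; most other targets lie above the dashed line in both classes, and most receptor, signalling and inhibitor genes lie near the solid line.

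Other gene lists differed between these macrophage-like nuclei as well, and their part in the result was not tested. Resident-state genes were at 0.492 of their level in nuclei with 0 (0.426 to 0.566) and monocyte markers at 0.609. Inflammatory genes were at 1.45 (1.35 to 1.55), lipid-state genes at 1.66 (1.53 to 1.80) and the Mmp12 list at 2.07 (1.87 to 2.30). Macrophage markers were at 1.04 and epithelial markers at 1.02 (0.780 to 1.31), with 192 CPM of epithelial markers in the 88 nuclei. Endothelial markers were at 2.53, on 24 UMIs.

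The genes most like the inducible members were found as those with the highest ratio between the same 2 groups of macrophage-like nuclei, among 3746 genes with at least 20 UMIs in the 88 nuclei. Their ratios were what chose them and carry no test. Oas3, which encodes an activator of RNA decay, was at 32.8, followed by the chemokine gene Ccl5 at 25.8, Usp18 at 22.6 and Cmpk2, the neighbour of Rsad2 on chromosome 12, at 19.8. Mmp13, a collagenase gene, was at 19.2 and Oasl1 at 15.8. AW011738, at 15.4, lies close to Isg15 on chromosome 4 on the opposite strand. Then came Hdc at 11.3, Cd69, an early activation marker, at 9.90, and A930037H05Rik at 9.86, which overlaps the target Rnf213 on the opposite strand, so that their reads may not be told apart. Several rest on few nuclei. Hdc was in 1 of the 88 nuclei, with all 37 UMIs, and Ccl5 in 6, with 20 of 62 UMIs in 1. Oasl1 was in 39 nuclei and A930037H05Rik in 28.

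Epithelial-like nuclei gave another pattern. Depth varied widely in them, up to 103328 UMIs, and 73 nuclei with at least 10000 UMIs held 85.7% of the UMIs of the inducible members. Of these 73 deep nuclei, 26 had none of the 6, the median was 90.4 CPM and the highest 3127 CPM. Nuclei with and without these genes thus stood side by side at great depth. At an equal depth of 1000 UMIs, 14.5% of 248 nuclei had a UMI of the 6 against 19.2% for an even spread, the variance was 1.74 times the mean, and 0 nuclei had 5 or more UMIs. In macrophage-like nuclei at that depth 20 of 1168 had 5 or more. At 4000 UMIs, 13 of 167 epithelial-like nuclei (7.78%) and 17 of 336 macrophage-like nuclei (5.06%) had 5 or more, but the variance was still 4.38 times the mean against 19.3. The highest nucleus at that depth had 15 UMIs of the 6 among epithelial-like and 49 among macrophage-like nuclei.

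Of epithelial-like nuclei, 57 (21.2%, 16.5 to 26.6) had 2 or more of the 6, where independence at the same number of positive nuclei gives 62.9. Those with 4 or more were 27 where it gives 14.5, and 17 had 5 where it gives 4.49. These numbers are at full depth, which was great in many of these nuclei. After thinning to 1000 UMIs, 10 of 248 epithelial-like nuclei had 2 or more, where independence gives 3.27. At that depth 31 of 1168 macrophage-like nuclei had 2 or more, where it gives 13.5, so both classes had an excess. By well, 56 of the 57 nuclei with 2 or more were among the 240 of well 1, and 1 was among the 29 of well 2. Without the shared barcodes the numbers were 50 against 54.0 for 2 or more, 20 against 7.88 for 4 or more and 11 against 1.49 for 5. The 5 genes were Ifit1, Ifit2, Ifit3, Rsad2 and Isg15 in each of the 17, since Cxcl10 was in none of them. The richest nucleus had 36 UMIs of Rsad2, 27 of Ifit2, 25 of Ifit1, 22 of Ifit3 and 11 of Isg15 among 38700 UMIs. The second had 21 each of Ifit1, Ifit2 and Rsad2, 17 of Ifit3 and 12 of Isg15. Each of the 10 richest epithelial-like nuclei had these 5 genes, at 24410 to 97412 UMIs of depth. The 10 richest macrophage-like nuclei had 2547 to 5293 UMIs, so the numbers of members seen in them are not compared. Ifit1 and Ifit3 were in 39 nuclei together, 75.0% of Ifit1 nuclei and 79.6% of Ifit3 nuclei.

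The other interferon targets were at 6548 CPM (6418 to 6680) in these 57 nuclei and at 1499 CPM (1423 to 1578) in the 159 with 0 of the 6, a ratio of 4.37 (4.13 to 4.62), or 4.40 without the shared barcodes. This contrast was not split by well, and all but 1 of the 57 were from well 1. Over all epithelial-like nuclei these targets were at 4251 CPM in well 1 and 947 CPM in well 2. Of 34 targets with at least 50 UMIs, 32 were at least 2-fold higher and 0 lower, where 6.51% of 7648 genes were higher and 5.91% lower. Rnf213 was 8.86-fold higher, Oasl2 15.2-fold and Ly6e, a surface protein gene, 2.85-fold. Irf7 was 14.6-fold higher (9.25 to 24.5) and Parp14 7.22-fold (5.08 to 10.6). Among the receptor and signalling genes, Stat2 (4.16) and Irf9 (2.0) were at least 2-fold higher, and of 4 inhibitor genes 1 was, Usp18 (7.61). Of 10 sensor genes 5 were: Dhx58 (10.7), Zbp1 (8.34), Ifih1 (3.77), Ddx58 (3.71) and Myd88 (2.18). Stat2, Usp18, Ddx58, Ifih1, Dhx58 and Myd88 were thus at least 2-fold higher in both classes.

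The 2 groups of epithelial-like nuclei differed in more than interferon genes, and the part of these differences was not tested. Median depth was 18684 UMIs in the nuclei with 2 or more and 4189 in those with 0. Cycling genes were at 0.175 (0.145 to 0.211) and immediate early and heat shock genes at 0.509, while the lipid-state list was at 4.18. That sum does not stand for the whole list. Of its 8 genes 4 had at least 50 UMIs, and 2 of these were at least 2-fold higher, with a median ratio of 1.66. Over all genes tested 6.51% were higher. A single nucleus held 677 of the 4157 UMIs of the list in the nuclei with 2 or more. Macrophage markers were at 427 and 329 CPM. Highest by the rule for like genes were Saa1 at 20.6 and Saa2 at 14.6, acute-phase genes, with Ifi44 (16.2), Iigp1 (15.5), Oasl2 (15.2), Cwh43 (12.3), Cmpk2 (11.6) and Dhx58 (10.7). Ifit3b, with 74 UMIs, and Olfr56, with 51, had 0 UMIs in the nuclei with 0 of the 6. Olfr56 overlaps 10 annotated genes, Ifi47 among them. Cmpk2 was the only gene named by the rule in both classes.

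In the unnamed nuclei of few counts the inducible members were near an even spread, but no comparison with the named classes at equal depth was made. Cluster 6 had 29 nuclei, all from well 1, with a median of 648 UMIs and 7 of 12 epithelial markers counted. Its nuclei had 33 UMIs of the inducible members, or 1505 CPM (1036 to 2113), and these lay in 21 of the 29 nuclei where a spread by depth gives 19.0. No nucleus had more than 3. Ifit1 was at 410 CPM in 8 nuclei, Ifit3 at 365 CPM in 8, and Irf7 at 684 CPM (383 to 1128) in 13. The other interferon targets were at 8754 CPM (7560 to 10084) in this cluster. Cluster 5, the other one, had 255 nuclei with 414 CPM of the inducible members (341 to 497), in 67 nuclei where a spread by depth gives 76.6.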

How the data were processed

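The authors deposited 1 matrix of raw UMI counts per gene and barcode, made with Cell Ranger 5.0 on mm10 per the submitters' processing notes, with software version 5.0.1 per the file headers. Annotation, counting of introns and calling of nuclei: not given in the sources used here. Barcodes with under 500 UMIs (11), under 300 genes (5) or over 5% mitochondrial UMIs (9) were removed, 21 in all, then 5 doublets (Scrublet in scanpy 1.11.5, 0 in well 1 and 1.14% of well 2, a low yield).

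Counts were scaled to 10000 per nucleus. The 2000 most variable genes, without 110 interferon and member genes, gave 30 principal components and 15 neighbours for Leiden clustering at resolution 0.5, and 0.8 for sub-clusters (igraph 0.11.9, statsmodels 0.14.6, numpy 2.4.6, scipy 1.17.1, pandas 2.3.3, Python 3.11.15, matplotlib 3.10.9). A marker counted for a cluster at 5 UMIs, 20 CPM and 0.5 of its highest cluster level; 3 were needed for a name.

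Counts were summed over the nuclei of a group and given as CPM with Poisson intervals; ratios have conditional binomial and shares Clopper-Pearson intervals. Genes needed 50 UMIs over both groups for a 2-fold call. Ratios and expected numbers were run on simulated Poisson counts. These lack the variation between nuclei seen here, so they check the computation only. Members, the split into 6 and 3, gene lists, markers and the rule for named genes (all members, the 5 most abundant genes of each list, the 10 most alike, the close copies of members) were chosen with earlier results of these data known; other genes past 2-fold were named after their values were seen. Alternatives covered depth, clustering, doublets, wells, the richest nucleus, weighing and shared barcodes. Of gene identifiers, 32235 were found in GENCODE vM21; sequences are RefSeq's. The target Mx2 was not analysed here, and 1 signalling gene is not reported here.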

Additional observations from a re-analysis of the deposited data

How the results depend on the processing

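Of 94 values under 11 settings, 64 stayed within the counting interval of the main value, 29 moved further and 1 crossed a ratio of 1. The last was the ratio of other targets in the lipid-like sub-cluster to the other macrophage-like nuclei. Over both wells it was 0.840, and in well 1 it was 1.08 (0.994 to 1.16), not clearly different from 1. The number of nuclei with 2 or more of the 6 has no such interval and was judged by a fixed fold instead. The inducible members in macrophage-like nuclei (301 CPM) were at 276 CPM with clustering resolution 1.0, 332 in well 1, 233 in well 2 and 283 without the richest nucleus, and the broad members (426 CPM) at 449 in well 1, 377 in well 2 and 405 after thinning to 1000 UMIs. The ratio of all 9 members to epithelial-like nuclei (1.09) was 9.77 in well 2, 1.68 after thinning, 1.57 as a mean over nuclei and 1.23 without shared barcodes. Nuclei with 2 or more of the 6 (88) numbered 18 in well 2 and 31 after thinning. Their number over that of a spread by depth (0.353) was 0.950 after thinning, with 31 nuclei where that spread gives 32.6. At that depth nuclei with 2 or more were thus about as many as for an even spread, and those with 3 or more were 16 where it gives 1.78. The share in the 10 richest nuclei (35.2%) was 38.9% in well 1 and 74.9% in well 2, which have fewer nuclei. The ratio of other targets (3.31) was 3.14 in well 1, 3.92 in well 2, 4.32 after thinning and 3.52 as a mean over nuclei. Resolution 1.0 redraws the macrophage-like class, and the cause of the other changes was not tested. No paired analysis was possible because the columns carry no sample or replicate number and the results come from no test.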
